A study of Rattus norvegicus with 6 samples.

Results

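On the minus strand of chromosome X, SYNCRIP iCLIP of rat cortical neurons gave a dense array of peaks over 7120 nt (115098681 to 115105800, rn6). SYNCRIP (hnRNP Q) binds RNA and belongs to the heterogeneous nuclear ribonucleoproteins. In neurons it is found in the cytoplasm as well as the nucleus, is a known component of RNA granules that travel along dendrites, and has been linked to the transport, stability and translation of mRNA. In iCLIP, ultraviolet light links a protein to the RNA it touches, and the sequenced fragments recovered with an antibody mark where on the RNA the contacts lie. Many peaks close together on the same strand mean fragments recovered along a long stretch of transcribed sequence, in contrast to a single isolated site. Whether they exceed the background recovered from the same RNA was not tested, as no IgG lists were analysed and the RNA level is unknown.

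All peaks that lay wholly inside this window on the minus strand were taken. They numbered 193 of the 12583 peaks of the 3 deposited SYNCRIP lists, and they merged into 73 of 7023 regions. The window had been chosen from these same lists, because it held more regions with peaks of all 3 libraries than any other chain of regions separated by at most 200 nt. Its peak counts, sharing and density are therefore given as a description, with no test. From its position the window was expected to lie in the 3' UTR of Dcx, the gene of doublecortin, a microtubule-binding protein of immature and migrating neurons. No rn6 annotation or sequence was used here to check this. RefSeq's table places Dcx on chromosome X, minus strand, of the GRCr8 build, the same chromosome and strand as the window, but the builds differ and this does not place the window in the gene. The window is therefore called by its position, its values (64 or 65 peaks per library and 73 regions) are not assigned to Dcx, and no sequence is printed.

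The neurons were primary cortical cells from Sprague-Dawley rats, kept 6 days in vitro on 10 cm plates and exposed to UV-C at 300 mJ/cm2, and the molecule analysed was cytoplasmic RNA. Of the 6 samples, 3 were precipitated with an anti-hnRNPQ antibody (clone 18E4) and 3 with an IgG1 isotype control. All 6 share strain, cell type, age in culture and irradiation, and differ in the antibody. Only the SYNCRIP lists, of 5687, 4163 and 2733 peaks in replicates 1, 2 and 3, were used. IgG lists were not analysed here, and no value below has an IgG background beside it. Sequencing depth and the level of the underlying RNA are unknown from these lists, and a peak list cannot be used to check the cell type by its markers. The design text calls the replicates biological.

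The 3 libraries placed nearly the same number of peaks in the window although their full lists differed in length. At equal list lengths of 2733 this did not hold, with 46, 53 and 64 peaks in replicates 1, 2 and 3. With the full lists, replicate 1 had 65 peaks in the window, replicate 2 had 64 and replicate 3 had 64, a mean of 64.3 ± 0.58 (SD, n = 3). As a share of the list this was 1.14% (95% Wilson interval 0.898 to 1.45) in replicate 1, 1.54% (1.21 to 1.96) in replicate 2 and 2.34% (1.84 to 2.98) in replicate 3. The share was lowest in the longest list and highest in the shortest. Of all chromosome X peaks, the window held 19.2%, 26.8% and 33.9% in replicates 1, 2 and 3. No peak of any of the 3 lists lay on the plus strand of the window. The intervals cover counting error only and treat neighbouring peaks as independent.

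Equal counts did not mean equal coverage. Peaks lay over 4480 nt of the window in replicate 1 (62.9%), 3580 nt in replicate 2 (50.3%) and 2740 nt in replicate 3 (38.5%), a mean of 50.6% ± 12.2 (SD, n = 3). Coverage thus fell in the order of list length while the number of peaks did not. Peak width carried the difference. The median width was 40 nt in replicates 1 and 2 and 20 nt, a single bin of the peak caller, in replicate 3. The widest peak measured 460 nt in replicate 1, 260 nt in replicate 2 and 160 nt in replicate 3. Peaks of at least 100 nt numbered 13, 11 and 7.

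**Figure D1:**
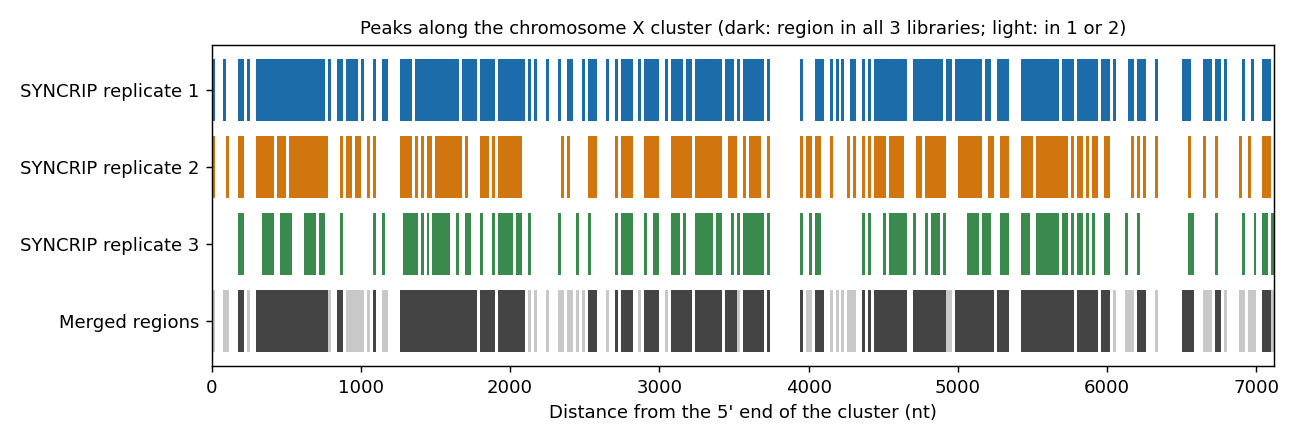
Peaks of SYNCRIP replicates 1, 2 and 3 (upper 3 rows) and the merged regions (lowest row) along the 7120 nt, with distance from the 5' end of the minus strand in nt on the x axis. Each bar spans a peak or region, dark regions have peaks of all 3 libraries (33 of 73), and the widest bars of replicate 1 stand over several narrower bars in replicates 2 and 3.

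Wide peaks of replicate 1 were often divided in the other libraries. The clearest case is the widest region, 480 nt long (115105021 to 115105500). Replicate 1 covered 460 nt of it with 1 peak, replicate 2 covered 440 nt with 3 peaks and replicate 3 covered 280 nt with 4 peaks. A 420-nt region (115104121 to 115104540) held 2 peaks of replicate 1, 5 of replicate 2 and 5 of replicate 3. A 360-nt region (115100021 to 115100380) held 2, 3 and 4 peaks in the respective libraries. In each of these 3 regions replicate 1, which covered the most, had the fewest peaks.

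Peaks in the window were wider than usual for their lists. Peaks of more than 1 bin made up 37 of 65 (56.9%) in replicate 1, where 24.5% of the whole list were that wide. They made up 33 of 64 (51.6%) in replicate 2, against 23.0% of the list, and 29 of 64 (45.3%) in replicate 3, against 21.6%. Neighbouring peaks of a list were most often separated by 1 uncovered bin of 20 nt, which was the case for 34 of 64 gaps in replicate 1, 30 of 63 in replicate 2 and 24 of 63 in replicate 3. The longest gap was 200 nt in replicate 1, 260 nt in replicate 2 and 320 nt in replicate 3. Wide peaks were not particular to this window. In replicates 1, 2 and 3 they made up 50%, 50% and 40% in the chromosome 1 cluster described at the end. In the chromosome 9 cluster they made up 54.3%, 45.7% and 39.4%. The window was chosen on its number of regions with peaks of all 3 libraries, and these counts are not evidence of anything further.

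Of the 73 regions, 33 (45.2%) had peaks of all 3 libraries, where 24.9% of all regions did, and 47 (64.4%) had peaks of at least 2, where 48.2% of all regions did. The window was chosen on the first of these counts, so nothing is read from the difference. The other regions were mostly narrow. Those with peaks of all 3 libraries had a median width of 80 nt, and 14 of the 33 were at least 100 nt wide. Of the remaining 40 regions, 32 were a single bin wide, with a median of 20 nt. Over the whole lists, regions with peaks of all 3 libraries had a median width of 40 nt. The other 5276 had a median of 20 nt, and 4751 of them were a single bin wide. A region spans all its merged peaks, so its width is not independent of the number of libraries. Replicate 1 alone had 16 regions, replicate 2 alone 6 and replicate 3 alone 4. Replicates 1 and 2 without 3 had 8, replicates 1 and 3 without 2 had 5, and replicates 2 and 3 without 1 had 1. Of all 7023 regions, replicates 1, 2 and 3 alone had 2359, 899 and 379. The same 3 pairs had 1233, 298 and 108 of them, in the same order. Replicate 1 alone thus had the most in the whole lists too, and this is not particular to the window.

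Sharing counted over peaks was uneven between directions. These percentages were not computed over the whole lists, so the unevenness is not read as a trait of the window. Of the peaks of replicate 1, 67.7% overlapped a peak of replicate 2 and 61.5% a peak of replicate 3. Of the peaks of replicate 2, 89.1% overlapped replicate 1 and 73.4% replicate 3. Of the peaks of replicate 3, 89.1% overlapped replicate 1 and 84.4% replicate 2. Replicate 1, with the most coverage, was overlapped most often by the others and had the most peaks without a partner, 21 against replicate 2 and 25 against replicate 3. The mean over the 6 ordered pairs was 77.5%. It was 51.8% when each peak had to overlap its partner by 50% of both lengths and 24.9% for identical start and end.

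The window divides into 356 bins of 20 nt, which avoids counting pieces. Peaks of all 3 libraries covered 114 bins (32.0%), of exactly 2 libraries 65 bins, of 1 library 68 bins, and 109 bins (30.6%) were under no peak. The covered bins were largely nested. Of the 137 bins of replicate 3, 127 (92.7%) were covered in replicate 1, which covered 62.9% of the window, and 117 (85.4%) in replicate 2, which covered 50.3%. Of the 179 bins of replicate 2, 163 (91.1%) were covered in replicate 1. Replicate 3 alone covered 7 bins, replicate 2 alone 13 and replicate 1 alone 48. The 114 bins shared by all formed 54 separate runs, 28 of them a single bin, and the longest run was 160 nt (115100121 to 115100280).

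Moving a list along the window showed how far the agreement depended on exact position. Unmoved, the libraries had a mean of 89.7% of the smaller library's bins in common, over the 3 pairs of libraries. After a move of 20 nt it was 72.8%, after 100 nt 65.4% and after 500 nt 54.1%, averaged over both directions. Bins in common in the whole lists went from 79.1% to 41.4%, 26.0% and 13.3% over the same moves. At 500 nt the window kept 0.60 of its unmoved value and the whole lists 0.17. The clusters on chromosomes 1 and 9 described at the end kept 0.60 and 0.34, so the window did not stand apart from the first of them in this. Only peaks inside a cluster were used, so bins moved past its edge could match nothing. Those clusters span 3540 and 3680 nt against 7120 nt, and the same move took a larger part of them past the edge. Their values are therefore not strictly like for like with the window. The larger library of each pair covered 62.9%, 62.9% and 50.3% of the window. Much of the overlap in the window was also obtained away from the matching position, and its relation to coverage was not tested. The overlap was highest without a move, and after the first 20 nt it fell more slowly, to 63.0% at 200 nt.

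**Figure D2:**
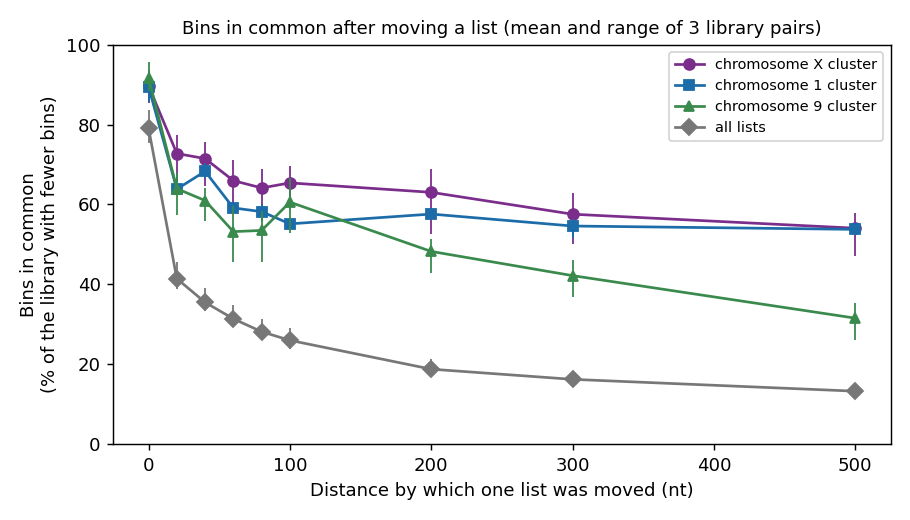
Bins in common between libraries, as a percentage of the library with fewer bins (y axis), after 1 list was moved by the distance on the x axis (nt), for the chromosome X window, the clusters on chromosomes 1 and 9, and the whole lists. Points are means and lines ranges of 3 library pairs. The chromosome X window starts at 89.7% and stays at 54.1% at 500 nt, where the whole lists are at 13.3%.

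Coverage varied along the window. Positions are counted here from its 5' end, taking the listed strand as that of the RNA, so that position 1 is 115105800. Coverage in the first 1000 nt was 70.0%, 62.0% and 34.0% in replicates 1, 2 and 3. In the stretch from 5001 to 6000 it was 80.0%, 70.0% and 58.0%, the highest of the 7 full stretches in each library. In the stretch from 6001 to 7000 it was 38.0%, 20.0% and 16.0%, the lowest of the 7 in each. Every library's coverage of the dense stretch was above every library's coverage of the sparse one, with means of 69.3% ± 11.0 and 24.7% ± 11.7 (SD, n = 3). Both stretches were picked on these same values, so their separation is a description and was not tested. Both the densest and the sparsest stretch were the same in all 3 libraries. Bins covered in all 3 made up 54.0% of the dense stretch and 8% of the sparse one.

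**Figure D3:**
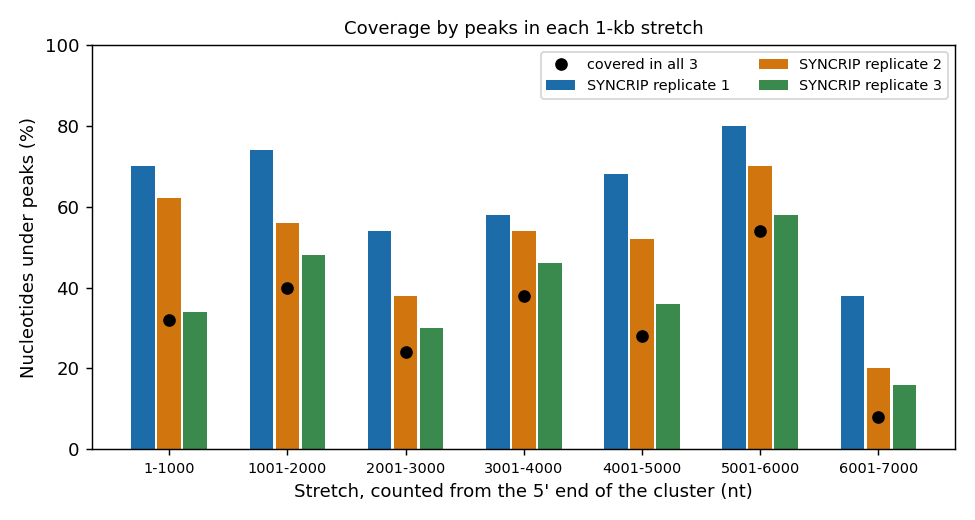
Nucleotides under peaks in each full 1-kb stretch from the 5' end (x axis), in percent (y axis), as bars for SYNCRIP replicates 1, 2 and 3, with black points for bins covered in all 3. The stretch from 5001 to 6000 is the highest in each library (80.0%, 70.0% and 58.0%) and the stretch from 6001 to 7000 the lowest.

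The difference in coverage between these stretches was larger than the difference in peak number. The sparse stretch held 10, 10 and 7 peaks in replicates 1, 2 and 3, and the dense stretch held 7, 9 and 10. Its 14 regions included 3 with peaks of all 3 libraries, whereas all 6 regions of the dense stretch had them. Between 2001 and 3000 the window also had many small regions, 15 in all and 5 with peaks of all 3 libraries, with coverage of 54.0%, 38.0% and 30%. The longest stretch without a peak of any library was 200 nt (115101861 to 115102060, positions 3741 to 3940). The next longest was 160 nt (115099301 to 115099460), inside the sparse stretch. Of the 72 gaps between neighbouring regions, 59 were at most 40 nt, and 14 of these were 0, where neighbouring regions abutted without overlap.

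The edges differed on the 2 sides. At the 5' end the first region (115105781 to 115105800) had peaks of replicates 1 and 2, with scores of 35 and 27 near the bottom of both lists. Beyond it, 220 nt away and so just outside the chaining distance, every library had a peak at 115106021 to 115106040, with scores of 64, 33 and 29. Within 1000 nt on that side lay 5 regions, all between 115106021 and 115106240. Of these, 1 had peaks of all 3 libraries and the others had peaks of 2. At the 3' end the last region (115098681 to 115098700) was a peak of replicate 3 alone, with a score of 25. The next minus-strand peak on that side lay 1482940, 1500060 and 1500040 nt away in replicates 1, 2 and 3. The array therefore continued past its 5' edge with a short group of 5 regions and had no further peak within 1000 nt of its 3' edge.

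Scores in the deposited lists are whole numbers of unstated meaning, so they were ranked within a list. The median peak of the window stood at percentile 76.7, 73.3 and 66.3 of its list in replicates 1, 2 and 3. Scores ran from 32 to 156 in replicate 1 (median 62), from 27 to 106 in replicate 2 (median 46.5) and from 20 to 100 in replicate 3 (median 31.5). The highest of them ranked 127th, 124th and 37th in the respective lists, whose top scores were 8374, 4693 and 2410. Scores above the list's upper quartile were held by 35 of 65 peaks (53.8%) in replicate 1, 31 of 64 (48.4%) in replicate 2 and 19 of 64 (29.7%) in replicate 3. Over the whole lists these shares were 24.7%, 24.3% and 23.3%. The window was thus built of many peaks of moderately high score and ranked no higher than 37th in any of the 3 lists.

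**Figure D4:**
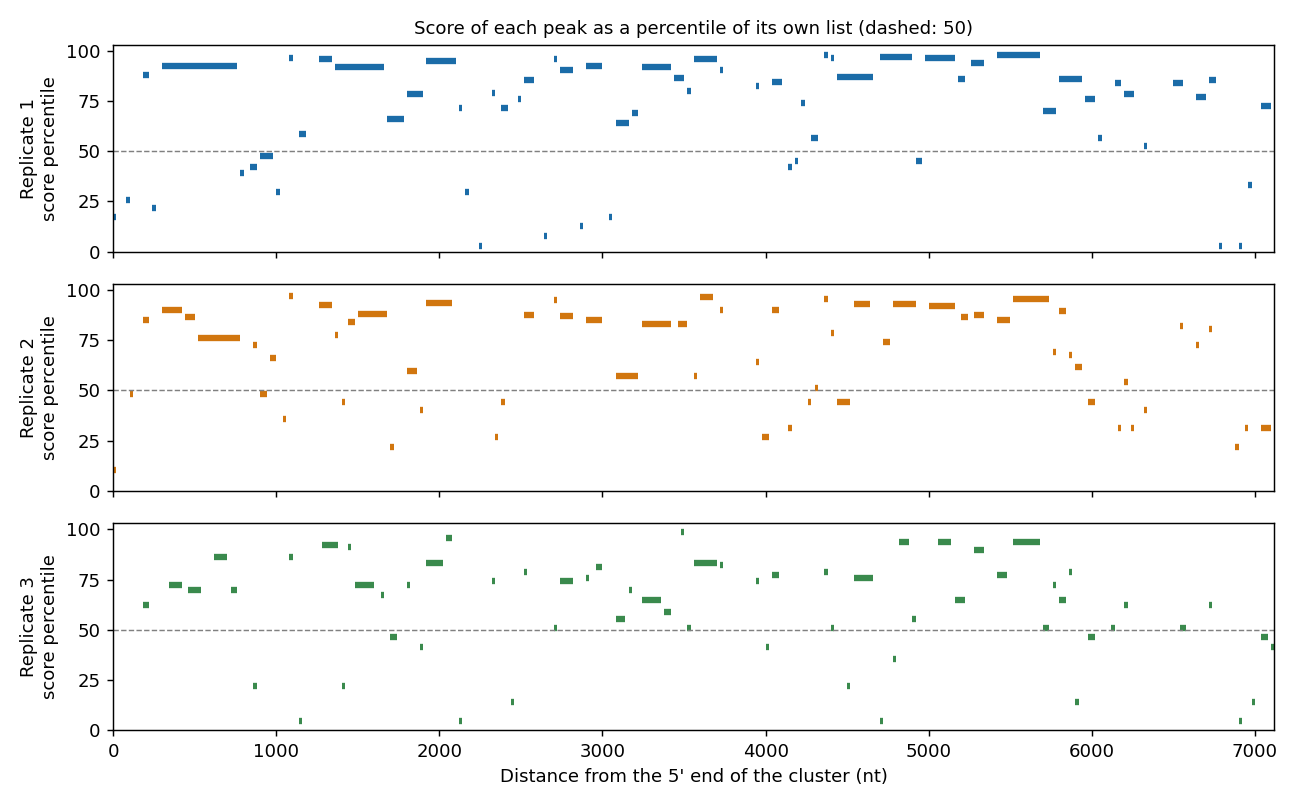
Score of each peak as a percentile of its own list (y axis, dashed line at 50) along the window (x axis, nt from the 5' end), for replicates 1, 2 and 3 from top to bottom. Each bar has the width of its peak. The medians are 76.7, 73.3 and 66.3, and low bars are mostly a single bin wide.

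Within the window, peaks with higher scores were more often wide and in regions shared by all 3 libraries. The medians below were not computed over the whole lists, so this is not read as a trait of the window. In replicate 1, peaks in regions of all 3 libraries had a median percentile of 87.5 (36 peaks), those in regions of 2 libraries 58.6 (13 peaks) and those without a partner region 29.7 (16 peaks). The medians were 83.6, 42.3 and 33.7 in replicate 2 and 71.0, 23.0 and 27.6 in replicate 3, the last 2 over 6 and 4 peaks. Peaks of at least 4 bins stood at a median percentile of 91.9, 89.0 and 79.6 in replicates 1, 2 and 3, and those of 1 bin at 43.6, 51.2 and 51.1. Over the 33 regions with peaks of all 3 libraries, the highest score per region gave a Spearman rho of 0.81 between replicates 1 and 2, 0.64 between 1 and 3 and 0.69 between 2 and 3. Over the same 33 regions, score and region width gave a rho of 0.18, 0.21 and 0.47 in replicates 1, 2 and 3. These values leave out the mostly single-bin regions of 1 or 2 libraries and use the highest score per region. They are therefore not comparable with the medians over all peaks given above. These are descriptions across regions of 1 window, which share their RNA and their libraries.

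**Figure D5:**
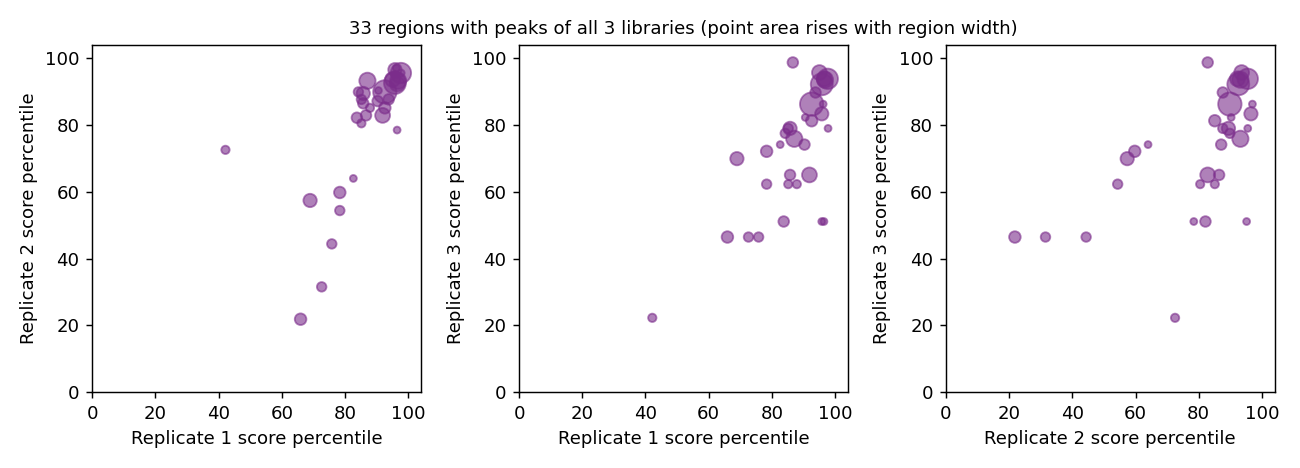
Highest score per region, as a percentile of its list, in pairs of replicates (both axes in percent) for the 33 regions with peaks of all 3 libraries. The area of a point rises with region width. Regions at the top right are high in both libraries, and a few narrow regions high in replicates 1 and 2 lie near 51 in replicate 3.

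The 10 best-ranked regions lay between positions 301 and 5780, and those ranked 1, 3 and 4 lay between 4701 and 5780. Ranked by the mean percentile of the 3 lists, the first was the 360-nt region at 115100021 to 115100380, inside the densest stretch, with highest scores of 154, 92 and 61 in replicates 1, 2 and 3. The second was a 180-nt region at 115103701 to 115103880, with scores of 114, 80 and 69. The third (115100881 to 115101100) scored 132, 78 and 60. The next (115100641 to 115100820) scored 129, 75 and 61, and like the third it lay in the 3' part of the window. The fifth, the 420-nt region named above, scored 122, 76 and 56. These 5 regions were between 180 and 420 nt wide, and their mean percentiles lay between 93.5 and 95.7.

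Narrow sites were found among the best-ranked regions as well. The sixth region was a single bin at 115104701 to 115104720 (positions 1081 to 1100), listed with the same start and end in all 3 libraries and with scores of 126, 106 and 45. It was the highest peak of the window in replicate 2. The eighth was likewise a single bin with the same coordinates in all 3, at 115101421 to 115101440 (positions 4361 to 4380), with scores of 156, 92 and 38. It was the highest peak of the window in replicate 1. The seventh region (115102101 to 115102240) scored 122, 102 and 42, the ninth (115100461 to 115100540) 105, 63 and 50, and the tenth, the widest, 98, 68 and 45. Of the 10 regions highest in each library, 7 were common to all 3.

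Replicate 3 ranked some sites differently. Its highest peak in the window was a single bin at 115102301 to 115102320 with a score of 100, percentile 98.7 of its list, within a region (115102281 to 115102360) that scored 78 and 56 in replicates 1 and 2, percentiles 86.6 and 82.8. In the other direction, the single bin at 115103081 to 115103100 scored 122 and 89 in replicates 1 and 2 (percentiles 95.8 and 95.1) and 27 in replicate 3 (percentile 51.1). The bin at 115101381 to 115101400, 20 nt from the eighth region, scored 128, 51 and 27 (percentiles 96.5, 78.4 and 51.1). These sites were present in every library and differed in rank. They were chosen after their values were seen.

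Peaks with the same start and end in all 3 lists numbered 8 in the window, 12.5% of the peaks of replicate 3, against 815 or 29.8% in the whole lists. All 8 lay within positions 181 to 4420, and 6 of them were a single bin. None lay in the densest stretch, where the same sequence was covered in every library by peaks with different ends. In all 3 lists the identical peaks stand before the other rows, so the order of rows in a list depends on the other lists. The part of this joint handling in the sharing described here was not tested.

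Peaks in regions seen in 1 library had median percentiles of 29.7, 33.7 and 27.6 in replicates 1, 2 and 3. The highest-ranking of replicate 1 alone was at 115103301 to 115103320, with a score of 61 (percentile 75.8), above the upper quartile of its list. That of replicate 2 alone was at 115105681 to 115105700, with a score of 35 (percentile 48.0), and that of replicate 3 alone at 115099661 to 115099680, with a score of 27 (percentile 51.1). Absence of a peak here is no measure of absent binding.

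The nuclear clusters next in number of regions common to all 3 libraries lie on the plus strand of chromosome 1 (264068861 to 264072400) and of chromosome 9 (73459241 to 73462920). At 3540 and 3680 nt they were shorter than the chromosome X window, which was the longest chain in the lists. Peaks per kb numbered 9.04 ± 0.08 on chromosome X, 11.1 ± 0.33 on chromosome 1 and 9.33 ± 0.31 on chromosome 9 (SD, n = 3). Regions common to all 3 libraries numbered 33, 30 and 25, or 4.63, 8.47 and 6.79 per kb. They were 45.2% of the regions on chromosome X, 73.2% on chromosome 1 and 64.1% on chromosome 9. The chromosome X window thus held the most such regions, over the longest span, and had the lowest share and density of the 3 clusters.

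Coverage was 62.9%, 50.3% and 38.5% in replicates 1, 2 and 3 on chromosome X. On chromosome 1 it was 58.8%, 60.5% and 52.5% in the same order, and on chromosome 9 it was 52.7%, 42.4% and 37.5%. The median score percentile, averaged over the libraries, was 72.1 ± 5.3 on chromosome X, 82.5 ± 5.0 on chromosome 1 and 79.1 ± 5.3 on chromosome 9 (SD, n = 3). Peaks identical in all 3 lists were 12.5% of replicate 3 peaks on chromosome X, 30% on chromosome 1 and 30.3% on chromosome 9. The clusters were ranked on these lists and their peaks are not independent, so the differences were not tested.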

How the data were processed

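Each of the 3 SYNCRIP libraries has its own peak list. Per the submitters' processing notes, STAR and rn6 were used, and the names of the deposited lists give Piranha with 20-nt bins. Its version, threshold, duplicate treatment and any use of IgG were not given in the sources used here. Per peak the deposited lists hold a score of no stated unit, which was used only within its list, as a midrank percentile. Positions are 1-based on rn6. From the lists, 1 malformed row was left out. Same-strand peaks with an overlap of 1 bp or more were merged into regions, book-ended peaks being left apart, and regions were chained over gaps of at most 200 nt. Stretches of 1000 nt were counted from the 5' end, with peaks and regions placed by midpoint. Merging was tested on simulated data. Analyses used Python 3.11.15, numpy 2.4.6 and scipy 1.17.1.

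The window, clusters and measures were chosen with earlier results of these data known. Regions were named by a rule: the 10 regions common to all 3 libraries with the highest mean percentile, the widest region, both end regions, the longest gap, the highest region of each library alone and the nearest peaks outside. Alternatives were each replicate left out, other overlap rules, a stricter score, equal list lengths, bins instead of regions and other chaining distances. Gene lists, cell type markers and motifs, planned for the case of an rn6 annotation or sequence, were not analysed here.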

Additional observations from a re-analysis of the deposited data

How the results depend on the processing

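Leaving out 1 replicate gave 64.0 to 64.5 peaks per library, 39 to 44 regions common to both remaining libraries (for both the count in all libraries and that in at least 2), 75.3% to 78.9% of peaks shared and 44.4% to 56.6% of the window covered. Regions common to all 3 libraries numbered 33 as reported, 17 when peaks up to 20 nt apart were joined, since neighbouring regions then fuse, and 8 with identical coordinates. Counted as bins they were 114. Regions with at least 2 libraries numbered 47, 22 with joining and 30 when scores below 1.5 times the minimum of the list were dropped, which left 41.3 peaks per library. The mean shared percentage was 77.5%, 51.8% where 50% of both peaks had to overlap, 92.5% where peaks up to 20 nt apart counted and 24.9% for identical coordinates. The similar number of peaks per library did not persist at equal list lengths of 2733, where it was 46, 53 and 64. Chaining over gaps of at most 60 or 100 nt, chosen after the data were seen, divided the window, with a longest piece of 2480 or 3740 nt, and gaps of up to 500 nt or 1000 nt extended it to 7560 nt. No paired analysis was possible because only SYNCRIP lists were used and their IgG partners by number were not analysed here. Sequencing depth is unknown.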
